A study of Mus musculus with 6 samples.

Results

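The cytosolic ribosomal protein genes of mouse hepatocytes were followed in 3 libraries from Bim knock-out and 3 from wild-type samples. A gene was counted as a member when it was protein-coding and its mouse symbol began with Rpl or Rps and a digit, or was Rplp0, Rplp1, Rplp2 or Rpsa. Ribosomal protein S6 kinases (10 genes) and annotated pseudogenes (6 protein-coding genes with -ps in their symbol) were left out. This gave 86 of the 48353 genes in the data. There were 43 genes of the large subunit, 3 of its stalk, 31 of the small subunit, 7 paralogs, 1 retrogene copy (Rps27rt) and Rps19bp1. The last is in the list by its symbol only, since it encodes a protein that binds RPS19 and is no subunit. Of the 86, 66 were above 0 in all 6 libraries, 16 were listed at 0 in 1 to 4 libraries and 4 were listed at 0 in every library.

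The knock-out samples were hepatocytes of C57BL/6 mice in which a floxed Bim gene (symbol Bcl2l11) was deleted with Alb-Cre, a Cre recombinase driven by the albumin promoter and so active in hepatocytes. The wild-type samples were hepatocytes of C57BL/6 mice, and the labels do not say whether they carried the floxed allele or Cre. The cells came from a collagenase perfusion in 2 steps, and the polyadenylated RNA was sequenced as single-end libraries. The protocol speaks of male mice on regular chow, or on a high-fat diet from 8 to 10 weeks of age for 14 to 20 weeks, and which sample had which diet is not stated. The labels do not tie the 3 samples of a group to different animals. The p-values therefore set a difference against the spread among these samples, which may be technical.

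The ribosome is built from ribosomal RNA and a single copy of most ribosomal proteins, and its small subunit reads the mRNA while its large subunit joins the amino acids. Cells therefore make the ribosomal proteins in matched amounts and degrade those that find no partner. Their mRNAs are among the most abundant in a liver cell, which secretes much of the protein of the blood plasma. Most begin with a cytosine followed by a run of pyrimidines, the terminal oligopyrimidine (TOP) tract, through which LARP1 and the kinase mTOR control their translation and stability. Loss or excess of ribosomal proteins is a known stress signal. BIM itself is a pro-apoptotic protein of the BCL-2 family at the mitochondrion.

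Start regions were printed to show what these genes share that the choice by symbol did not use. RefSeq gave a start for 66 of the 86 members (GRCm38.p6). In the stretch from 50 bases before to 50 after the start, the letters CTTTCC stood on the gene's own strand in 21 of the 66 members (31.8%) and in 5.43% of 27025 genes. On the other strand CTTTCC stood in 3.03% of the members and in 5.12% of all genes, so the excess was on the gene strand. The letters CCGGAAG, as in sites of ETS factors, were on the gene strand of 15.2% of the members and of 3.18% of all genes, and on the other strand of 7.58% and 3.16%. The letters TATAAA were on the gene strand of 7.58% of the members and of 4.05% of all genes, and on the other strand of 1.52% and 2.12%. The first string ends in the CC with which the second begins, so they can overlap by 2 bases, and a match is a description of letters only. The windows shown run from 10 bases before the start to base 20 of the transcript, 5′ to 3′ on the gene strand, with CTTTCC in capitals. They belong to the 3 members with the most reads among those with the letters in this window (Rpl18, Rpl28 and Rps10), to 2 of the members with the smallest p further on (Rpl35 and Rpl15) and to a pair of copies (Rps27 and Rps27rt). Rpl18, at chr7:45718061-45718090 on the plus strand, has the letters from base 4 of the transcript. Rpl28 lies at chr7:4792955-4792984 on the plus strand and Rps10 at chr17:27635225-27635254 on the minus strand. Rpl35 lies at chr2:39005112-39005141 and Rpl15 at chr14:18270967-18270996, both on the minus strand. Rps27 lies at chr3:90213629-90213658 and Rps27rt at chr9:114982720-114982749, both on the minus strand, and these windows share a run of 19 bases.
Rpl18: ctcgcaggccgctCTTTCCccgcccactcc
Rpl28: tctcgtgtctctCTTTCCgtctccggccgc
Rps10: gcgcacgccccttcCTTTCCagcctccgcc
Rpl35: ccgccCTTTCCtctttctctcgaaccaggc
Rpl15: agaaagccttcttcCTTTCCtctggcggca
Rps27: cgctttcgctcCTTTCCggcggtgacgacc
Rps27rt: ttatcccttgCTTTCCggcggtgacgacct

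Bcl2l11, the targeted gene, had 0 estimated reads in each of the knock-out libraries and 0, 680 and 478 estimated reads in wild-type replicates 1, 2 and 3. Wild-type replicate 1 was thus at 0 like the knock-out libraries, and since 36.6% of library values at loci with several transcripts were exactly 0, as given further on, a 0 alone does not show that the gene was lost. The libraries held 25335211 to 28245264 estimated reads in knock-out libraries and 28131355 to 31130519 in wild-type. Of the locus totals that were whole numbers, 92.3% to 93.0% were even in each library. Whether the estimates count a read more than 1 time was not tested, so they may not equal the number of sequenced reads. Of 14 hepatocyte markers 13 were read and Pck1 was at 0, while of 15 Kupffer cell and macrophage markers all 15 were read in wild-type replicate 1 and 7 to 9 in the other libraries. The neutrophil markers were at 0 in every library (0 of 6 read), and 5 of 10 endothelial, 1 of 10 stellate, 3 of 6 biliary, 2 of 10 lymphocyte and 1 of 6 erythroid markers were read in at least 1 library. In bulk RNA, fewer cells of a type and less RNA per cell cannot be told apart.

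As a group the ribosomal protein genes of knock-out hepatocytes differed from those of wild-type by less than the libraries of a genotype differed among themselves. The 66 members above 0 in every library took 3.52%, 3.70% and 4.06% of the estimated reads in knock-out replicates 1 to 3, and 3.97%, 3.30% and 4.06% in wild-type replicates 1 to 3. The ranges overlap, with the lowest share in wild-type replicate 2. In RPKM, the reads scaled to transcript length and to a library total, these 66 members summed to 63435 ± 3127 in knock-out libraries and 64446 ± 7350 in wild-type (SD, n = 3 each), a log2 ratio of -0.02. In RPM, the reads per 1000000 estimated reads of the library, they summed to 37590 ± 2739 in knock-out libraries and 37760 ± 4124 in wild-type, a log2 ratio of -0.01.

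Both subunits showed this. The 39 large subunit genes, stalk included, summed to 38604 ± 2141 RPKM in knock-out libraries and 39121 ± 4975 RPKM in wild-type, and the 23 small subunit genes to 24025 ± 1021 RPKM in knock-out libraries and 24556 ± 2417 RPKM in wild-type (SD, n = 3 each). The ratio of the large to the small subunit sum was 1.58, 1.63 and 1.61 in knock-out replicates 1 to 3, against 1.68, 1.52 and 1.57 in wild-type replicates 1 to 3. Taken in RPM, the ratio varied less, with 1.55, 1.59 and 1.57 in knock-out libraries and 1.58, 1.54 and 1.55 in wild-type. The balance of the subunits at the mRNA level thus varied by a few hundredths between libraries on the read scale, with overlapping groups.

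No ribosomal protein gene passed the test between the genotypes. With limma on log2(RPKM + 1) over all 11021 genes that averaged at least 1 RPKM, 0 of the 82 members tested had a Benjamini-Hochberg adjusted p below 0.05, where 0.789% of all tested genes did. An unadjusted p below 0.05 was reached by 2 of the 82, Rpl35 and Rps27a (1.89% of all tested genes), and the smallest adjusted p was 0.941. When Bim knock-out replicate 1 was left out, 1 member was called (Rps28, chosen after its values were seen), against 1.73% of all genes tested. When wild-type replicate 2 was left out, 1 member was called (Rpl22l1), against 1.77%. Rps28 had 3750, 0 and 0 reads in knock-out libraries and 4120, 4077 and 4127 in wild-type, and Rpl22l1, described with the paralogs, likewise has libraries listed at 0. Over the 5538 genes that were above 0 in all 6 libraries and averaged at least 1 RPKM, 0 of 66 members were called and 0% of all genes. In that fit 1 member, Rpl9, had an unadjusted p below 0.05, against 2.35% of all genes, and the smallest adjusted p of a member was 0.996. On RPM 0 of the 66 were called and 0 had an unadjusted p below 0.05 (1.26% of all genes).

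The differences were small for most of these genes, and the intervals give how small. The median difference in log2(RPKM + 1), knock-out minus wild-type, was -0.01 over the 66 members and 0.00 over all 5538 genes, with 27 members positive and 39 negative. Over all genes 2780 were positive and 2758 negative. The 95% interval of the difference lay within 2-fold either way for 56 of the 66 members (84.8%), against 78.6% of all genes. It lay within 1.5-fold for 39 of the 66, against 3066 of all 5538 genes. On RPM 32 members were positive and 34 negative, against 2966 and 2572 of all genes. The RPM interval lay within 1.5-fold for 64 of the 66 members, against 3754 of all 5538 genes. The exceptions among the members were Rpl13 and Rpl24, described further on. Of the large subunit genes 17 were positive and 19 negative in RPKM, and of the small subunit genes 7 were positive and 16 negative. The small subunit genes divided in RPM into 10 positive and 13 negative, and none of them (0) passed the test on either scale.

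**Figure D1:**
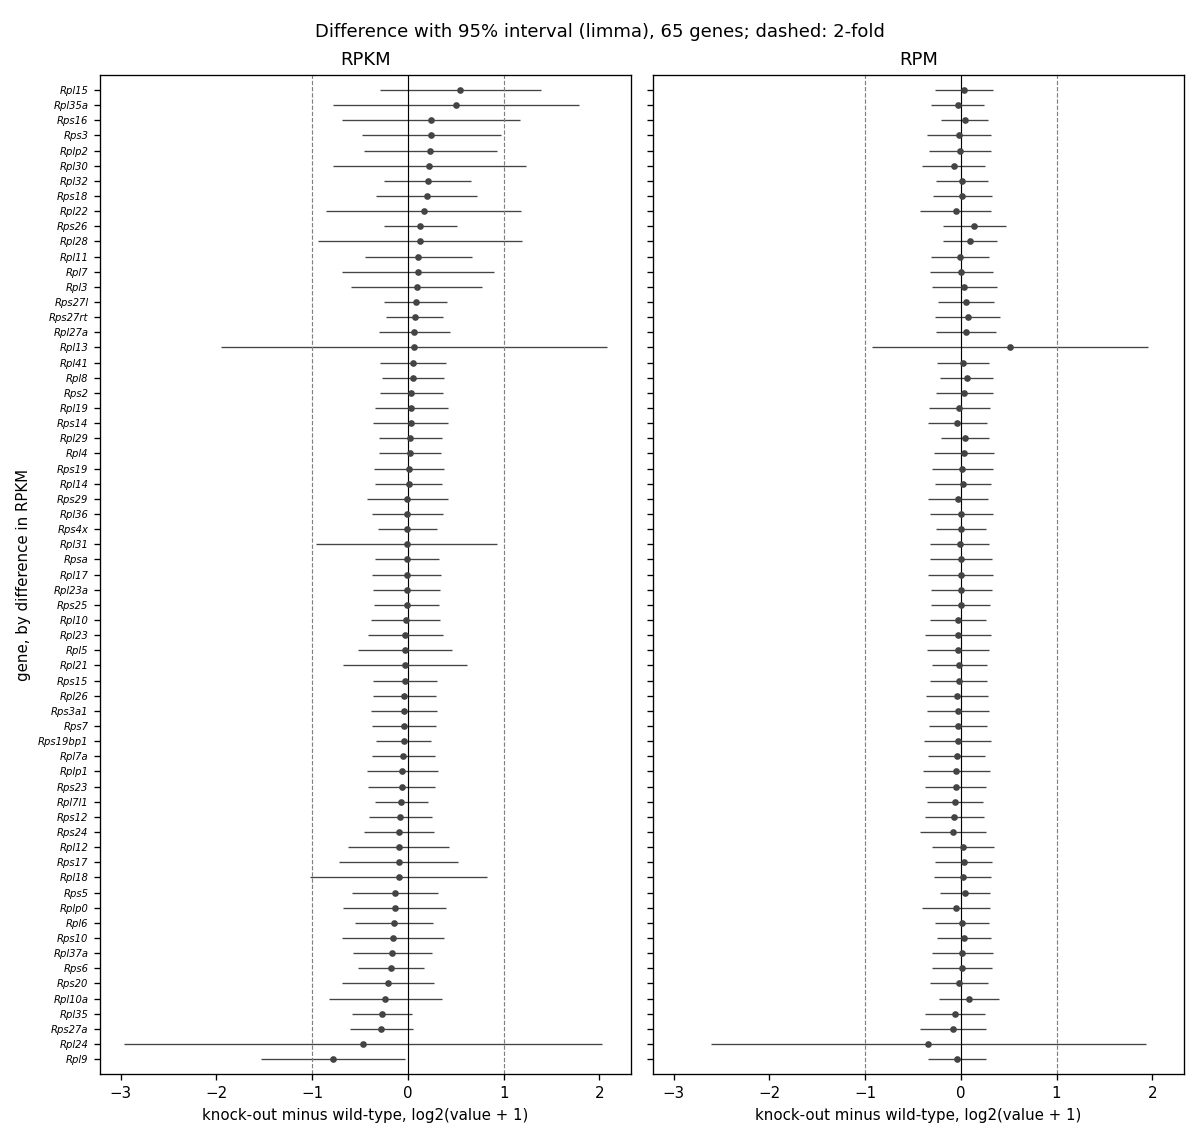
Difference between Bim knock-out and wild-type hepatocytes for 65 of the 66 ribosomal protein genes above 0 in all 6 libraries, in log2(RPKM + 1) on the left and in log2(RPM + 1) on the right. Points are knock-out minus wild-type and lines are 95% intervals from limma, with dashed lines at 2-fold. In RPM the wide intervals belong to Rpl13 and Rpl24, and all others shown lie within 1.5-fold either way.

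Groups that did not overlap were not more frequent among the ribosomal protein genes than among all genes. In RPKM the 3 knock-out values lay below the 3 wild-type values for 2 of the 66 members (3.03%), Rpl35 and Rps27a, against 2.96% of all 5538 genes in that direction. They lay above for 0 of the 66, against 2.98% of all genes, which makes 5.94% of all genes in either direction. On the RPM scale the groups overlapped for every one of the 66 members (0 without overlap), while 3.07% of all genes lay higher and 0.74% lower in knock-out with no overlap, 3.81% in all.

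The stalk proteins form the arm of the large subunit that recruits the translation factors. Rplp0, its base, measured 2319.5, 1773 and 1633 RPKM in knock-out libraries and 2589.6, 2012 and 1724 RPKM in wild-type. Rplp1, at a locus whose gene has 1 annotated transcript, measured 1418, 1357 and 1553 RPKM in knock-out libraries and 1577, 1306 and 1634 RPKM in wild-type. For both genes the groups overlap, and knock-out minus wild-type in log2(RPKM + 1) was -0.14 (SE 0.22) for Rplp0 and -0.06 (SE 0.15) for Rplp1. Rplp2, which pairs with Rplp1, measured 1051, 1736 and 1546 RPKM in knock-out libraries and 1643, 979.7 and 1083 RPKM in wild-type. Its RPM were closer, at 422.3, 502.3 and 494.5 in knock-out libraries and 512.8, 410.8 and 504.8 in wild-type. The difference of Rplp2 was 0.23 (SE 0.28) in log2(RPKM + 1) and -0.01 (SE 0.14) in log2(RPM + 1), so its sign rested on the scale.

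Among the small subunit genes, Rpsa, also known as the laminin receptor, measured 1128, 1109.9 and 1213 RPKM in knock-out libraries and 1157, 1061 and 1268 RPKM in wild-type. Rps6, the substrate of the S6 kinases downstream of mTOR, measured 770.03, 948.1 and 917.55 RPKM in knock-out libraries and 1017, 945.9 and 1005.5 RPKM in wild-type. Only the value of knock-out replicate 2 reached into the wild-type range of Rps6, and its difference was -0.18 (SE 0.14) in log2(RPKM + 1), or -0.08 without knock-out replicate 1. In RPM Rps6 stood at 680.3 ± 50.3 in knock-out libraries and 678.0 ± 81.4 in wild-type (SD, n = 3 each), a difference of 0.01 (SE 0.13). The interval of Rps6 on that scale ran from -0.31 to 0.32, and that of Rpsa from -0.32 to 0.32.

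The 8 most abundant ribosomal protein mRNAs per length, by mean RPKM over the 6 libraries, were Rps12, Rplp0, Rpl10, Rpl12, Rpl19, Rpl4, Rpl26 and Rpl41. Rps12, a protein of the small subunit's head, measured 2257, 2313 and 2456 RPKM in knock-out libraries and 2527, 2246 and 2659 RPKM in wild-type. Its groups overlap, and its difference was -0.08 (SE 0.13) in log2(RPKM + 1). Rpl10, which joins the large subunit late in assembly, stood at 1734 ± 210.4 RPKM in knock-out libraries and 1757 ± 112.1 RPKM in wild-type (SD, n = 3 each). Rpl12, at the base of the stalk, stood at 1667 ± 310.2 RPKM in knock-out libraries and 1781 ± 334.4 RPKM in wild-type. The neighbours in this order do not differ beyond their spread over the libraries, and Rps12 and Rplp0 overlap as well.

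Rpl4, which lines the exit tunnel of the nascent protein, had the smallest relative spread of these 8, with 1516, 1588 and 1584 RPKM in knock-out libraries and 1611, 1390.1 and 1633 RPKM in wild-type. Its difference was 0.02 (SE 0.13), with an interval from -0.31 to 0.35 in log2(RPKM + 1). Rpl19, part of a bridge between the subunits, stood at 1700.5 ± 203.6 RPKM in knock-out libraries and 1658 ± 152.4 RPKM in wild-type. Rpl26 stood at 1507 ± 31.8 RPKM in knock-out libraries and 1553 ± 141.9 RPKM in wild-type, and Rpl41, the smallest ribosomal protein, at 1513 ± 32.2 RPKM in knock-out libraries and 1466 ± 168.2 RPKM in wild-type (SD, n = 3 each). In each of these genes the wild-type spread contains the knock-out mean.

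Levels per length covered a wide range although most of the proteins are present in a single copy per ribosome. The 62 subunit and stalk genes above 0 in every library lay between a mean of 52.8 RPKM (Rpl13) and 2409.6 RPKM (Rps12), with a median of 1048 RPKM. Of these, 54 were above 500 RPKM. The median was 945.3 RPKM in the large subunit and 1092 RPKM in the small subunit, and the stalk genes ran from 1339.9 to 2009 RPKM. Of the 100 genes with the highest mean RPKM of all, 21 were ribosomal protein genes. The lowest small subunit gene per length was Rps20, at 263.3 RPKM. A transcript of 3706 bases took 92.8% to 100% of its reads. In RPM Rps20 was not the lowest, at 656.0 in knock-out libraries and 666.0 in wild-type. Rps26 stood there at 151.6 in knock-out libraries and 137.6 in wild-type.

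**Figure D2:**
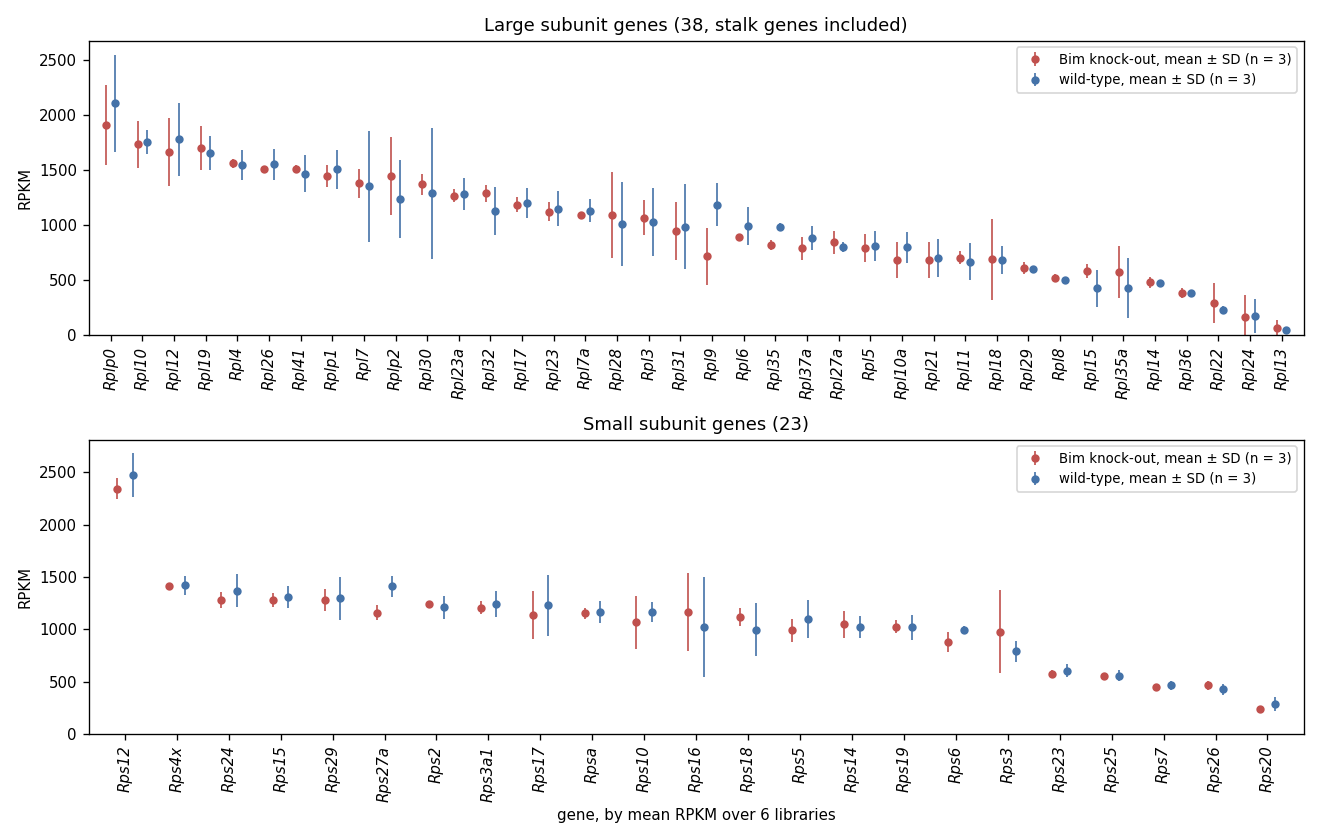
Mean RPKM of 38 large subunit genes (stalk included, upper panel) and 23 small subunit genes (lower panel) that were above 0 in all 6 libraries, ordered by mean. Red points are Bim knock-out and blue points wild-type, with the SD of 3 libraries as lines. Means run from 52.8 RPKM for Rpl13 to 2409.6 RPKM for Rps12, and the groups lie side by side for nearly every gene.

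The members with the smallest p in the fit of genes above 0 included Rpl9, Rpl35, Rps27a, Rpl15, Rps6, Rpl32 and Rps20, each with a limma adjusted p of 0.996. Rpl35, which sits at the exit of the peptide tunnel, measured 774.6, 807.9 and 872.5 RPKM in knock-out libraries and 958.4, 1028 and 966.01 RPKM in wild-type. The groups do not overlap, and the difference was -0.27 (SE 0.13) in log2(RPKM + 1). Rpl35 measured in RPM 373.3, 412.2 and 427.4 in knock-out libraries and 433.9, 365.4 and 473.1 in wild-type. There the groups overlap and the difference was -0.06 (SE 0.13).

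Rps27a encodes ubiquitin fused to a small subunit protein. It measured 1092, 1236 and 1150.3 RPKM in knock-out libraries and 1512, 1307 and 1409 RPKM in wild-type, with no overlap and a difference of -0.28 (SE 0.13) in log2(RPKM + 1). Its RPM were 675.6, 682.7 and 810.9 in knock-out libraries and 839.9, 653.5 and 805.1 in wild-type, which overlap. The difference of Rps27a on that scale was -0.08 (SE 0.14).

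Rpl9, a protein near the base of the stalk, had the largest negative difference of the 66 members in RPKM. It measured 459.7, 702.4 and 983.2 RPKM in knock-out libraries and 1302, 956.6 and 1296 RPKM in wild-type, a difference of -0.78 (SE 0.31) with an unadjusted p of 0.0446 in limma. The groups of Rpl9 overlap, since knock-out replicate 3 lay above wild-type replicate 2, and without knock-out replicate 1 the difference was -0.50. The estimated reads of Rpl9 were 10612, 10596 and 10859 in knock-out libraries and 12442, 10964 and 12135 in wild-type. In RPM they came to 375.7, 383.0 and 428.6 in knock-out libraries and 440.3, 352.2 and 431.4 in wild-type, which overlap, with a difference of -0.04 (SE 0.13). The RPKM therefore moved more than the reads did, and the reads had been assigned to other transcripts in different libraries. A transcript of 456 bases with a retained intron took 0, 0 and 4087 of the reads of Rpl9 in knock-out libraries and 12442, 6682 and 12135 in wild-type. One of 1729 bases, also with a retained intron, took 7066, 1866 and 0 in knock-out libraries and 0 in each wild-type library. The coding transcript of 680 bases took 3546, 8730 and 6772 in knock-out libraries and 0, 4282 and 0 in wild-type.

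Rpl15, an RNA-binding protein of the large subunit, had the largest positive difference in RPKM. It measured 641.65, 515.5 and 589.7 RPKM in knock-out libraries and 235.0, 465.5 and 570.4 RPKM in wild-type, a difference of 0.55 (SE 0.34). Wild-type replicate 1 is the low value, and without it the difference was 0.17. All 9463 reads of Rpl15 in that library were assigned to a transcript of 1922 bases that had 0 reads in the other 5 libraries. The estimated reads of Rpl15 were 8939, 8744 and 9102 in knock-out libraries and 9463, 8727 and 10026 in wild-type, and the difference in log2(RPM + 1) was 0.03 (SE 0.13).

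Rpl32 measured 1264, 1226 and 1373 RPKM in knock-out libraries and 1268, 879.7 and 1241 RPKM in wild-type, with wild-type replicate 2 as the low value and a difference of 0.21 (SE 0.19). Rps20 measured 238.8, 229.9 and 257.1 RPKM in knock-out libraries and 359.4, 228.4 and 266.1 RPKM in wild-type, with wild-type replicate 1 as the high value and a difference of -0.21 (SE 0.20). Without wild-type replicate 2 the difference of Rpl32 was 0.04, and without wild-type replicate 1 that of Rps20 was -0.03. In wild-type replicate 1, 1381 reads of Rps20 were assigned to a transcript of 512 bases with a retained intron that had 0 reads in the other libraries. In log2(RPM + 1) the difference was 0.02 (SE 0.11) for Rpl32 and -0.02 (SE 0.13) for Rps20.

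**Figure D3:**
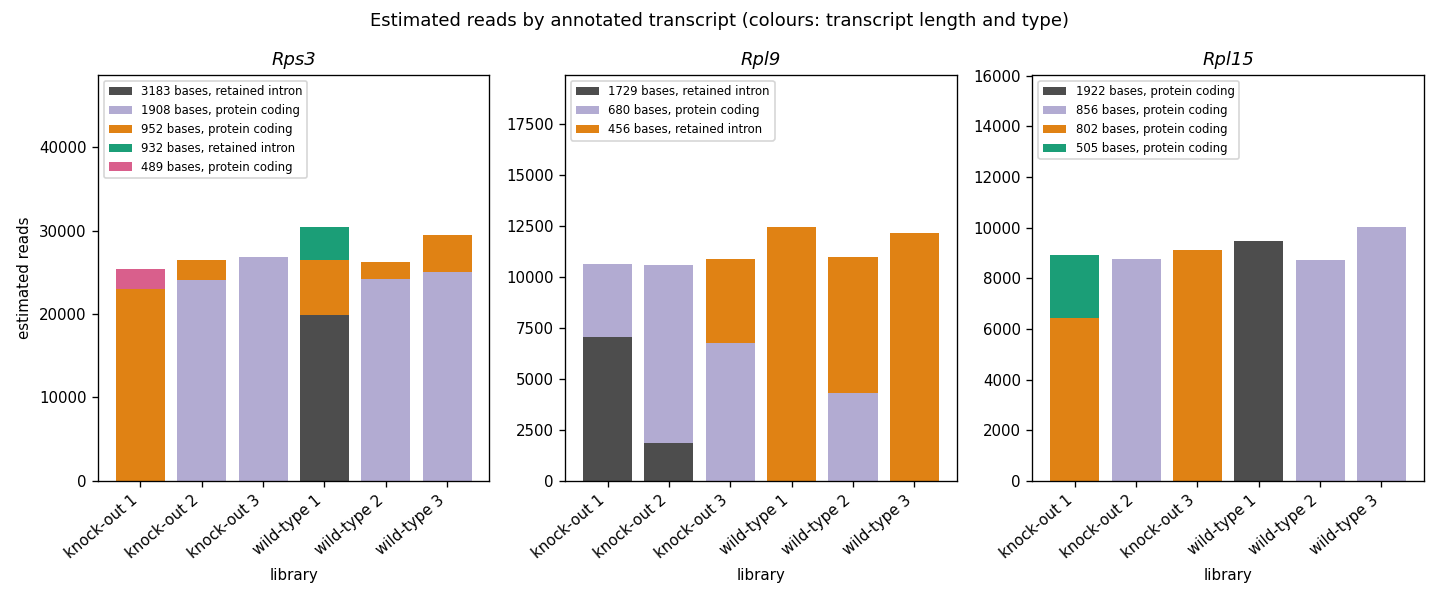
Estimated reads of Rps3, Rpl9 and Rpl15 in each library, divided by the annotated transcript they were assigned to (colours, with transcript length and type in the legends). The summed bars of Rpl9 lie between 10596 and 12442 reads, while the transcripts that make them up change from library to library.

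This change of transcript was common among the ribosomal protein genes. Of the 66 members above 0 in every library, 16 had 1 annotated transcript and 50 had 2 or more. Of the 50, the transcript with the most reads was the same in all 6 libraries for 14 genes, while 23 genes had 2 leading transcripts, 12 had 3 and 1 had 4 or more. The coefficient of variation over the 6 libraries had a median of 14.5% in RPKM and 8.97% in RPM for the 50 genes. For the 16 genes with 1 transcript it was 7.47% in RPKM and 9.42% in RPM. Over the 5472 other genes, with any number of transcripts, it was 16.5% in RPKM and 14.2% in RPM. For the 818 of these that averaged at least 100 RPKM it was 22.2% in RPKM and 12.2% in RPM. A larger spread in RPKM was thus not particular to ribosomal protein genes, and leading transcripts of other genes were not counted. In RPKM 25 members differed by more than 1.5-fold between their highest and lowest library, and in RPM 2 did. Rps3, at the entry site of the mRNA and chosen here after its values were seen, had 25368, 26524 and 26782 reads in knock-out libraries and 30432, 26186 and 29444 in wild-type. Its RPKM were 1435, 766.2 and 729.35 in knock-out libraries and 832.3, 673.9 and 863.3 in wild-type. The high RPKM of knock-out replicate 1 went with 22970 reads on a coding transcript of 952 bases, while a coding transcript of 1908 bases led in knock-out replicates 2 and 3 and in wild-type replicates 2 and 3. In wild-type replicate 1 a transcript of 3183 bases with a retained intron led for Rps3, with 19857 reads.

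On the read scale the ribosomal protein genes varied little. Their median coefficient of variation over the 6 libraries, 9.001%, lay below the 14.2% of the 5472 other genes in the fit and the 12.2% of the 818 other genes that averaged at least 100 RPKM. In RPM they also moved together from library to library. All 66 were above their own mean over the libraries in knock-out replicate 3, and all 66 were below it in wild-type replicate 2. In RPKM 45 of the 66 were above it in knock-out replicate 3 and 56 were below it in wild-type replicate 2. RPM and RPKM use different library totals. The total behind the RPKM was 19245556 in knock-out replicate 3 and 21899881 in wild-type replicate 2, against 25335211 and 31130519 estimated reads. The part of these totals in the shared movement was not tested. Wild-type replicate 2 was in RPM the lowest library for 56 of the 66 members (84.8%) and for 40.04% of the other genes. The median deviation from the gene's own mean, in log2 RPM, was -0.09, -0.02 and 0.11 in knock-out replicates 1 to 3 and 0.09, -0.19 and 0.11 in wild-type replicates 1 to 3. For the other genes it was -0.06, -0.02 and 0.10 in knock-out libraries and 0.06, -0.15 and 0.07 in wild-type. The order of the libraries was nearly the same, and the high and low libraries stood in both genotypes.

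**Figure D4:**
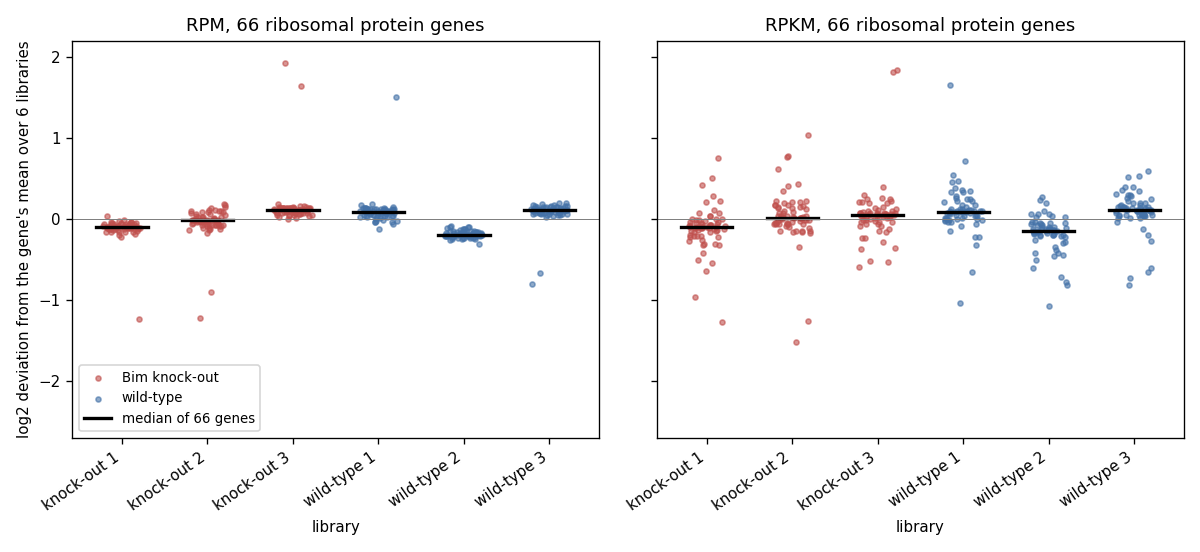
Deviation of each of 66 ribosomal protein genes from its own mean over the 6 libraries, on a log2 scale, in RPM (left) and RPKM (right). Red points are Bim knock-out and blue points wild-type libraries, and bars are medians over the genes. In RPM the genes move as a block, with medians of 0.11 in knock-out replicate 3 and -0.19 in wild-type replicate 2, and in RPKM they scatter more.

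Hepatocyte markers ran the other way. Of the 14 listed, 12 were above 0 in every library, Pck1 was at 0 in all 6 and Hnf4a was at 0 in knock-out replicate 3. The 12 summed to 43057, 47137 and 32336 RPKM in knock-out replicates 1 to 3 and 25601, 58820 and 26507 RPKM in wild-type replicates 1 to 3. The 3 libraries with the lowest hepatocyte marker sum, knock-out replicate 3 and wild-type replicates 1 and 3, were the 3 with the highest share of ribosomal protein reads. Wild-type replicate 2 had the highest hepatocyte marker sum and the lowest share. The marker sums are in RPKM and the shares in reads. The RPM medians of the other genes were also highest in those 3 libraries and lowest in wild-type replicate 2, so this order was not particular to ribosomal protein genes. Kupffer cell and macrophage markers summed to 85.3, 79.1 and 140.9 RPKM in knock-out libraries and 4643, 134.6 and 128.8 RPKM in wild-type, so the high macrophage sum was that of wild-type replicate 1, which ranked number 3 for the ribosomal protein share. The part of these cell markers in the ribosomal protein levels was not tested.

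Exact zeros fell on subunit genes that every cell needs, and also on paralogs such as Rpl36al and Rpl22l1. At loci with 2 or more annotated transcripts, 27 of 426 library values (6.34%) of members with a median above 100 reads in the libraries that read them were 0, against 36.6% for all genes at such loci. At loci with 1 transcript 0 of 66 member values and 0 of 12798 values of all genes were 0. The 27 zeros lay in 16 genes, 18 in knock-out libraries and 9 in wild-type libraries, and in all 27 the whole locus was at 0. Knock-out libraries thus held 66.7% of the members' zeros, and they held 52.1% of the 18026 zeros of all genes at such loci. The difference between the genotypes in the members' zeros was not tested. Zeros stood in knock-out libraries alone for 7 genes, in wild-type libraries alone for 3 and in both for 6. In the libraries that were not at 0 the 15 of these genes that are plotted had 2820 to 23014 reads, with a coefficient of variation of 2.16% to 12.8% in RPM. Each was thus either near its usual level or at exactly 0.

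Members with many reads that had a zero included Rps9, Rpl13a, Rpl37, Rpl27 and Rpl39. Rps9, at the mRNA entry of the small subunit, had 20607, 21032 and 0 reads in knock-out libraries and 21642, 19969 and 23014 in wild-type. Rpl13a, whose introns host small nucleolar RNAs, had 12400, 13800 and 0 reads in knock-out libraries and 15506, 13657 and 14460 in wild-type. Both Rps9 and Rpl13a were at 0 in knock-out replicate 3 only. Rpl37 had 0, 10715 and 10369 reads in knock-out libraries and 10893, 9940 and 11223 in wild-type. Rpl27 had 8161, 8309 and 9160 reads in knock-out libraries and 10207, 0 and 9765 in wild-type. Rpl39, which lines the peptide tunnel, had 8010, 8439 and 8936 reads in knock-out libraries and 0, 8574 and 10281 in wild-type. Rpl34, another large subunit gene and chosen after its values were seen, was listed at 0 in all 6 libraries.

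**Figure D5:**
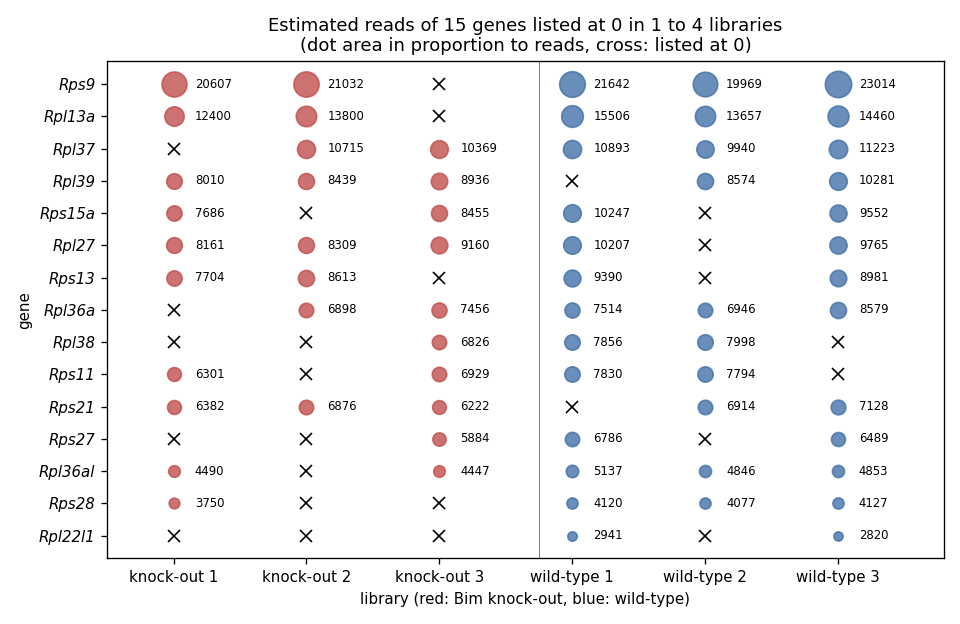
Estimated reads of 15 of the 16 ribosomal protein genes listed at 0 in 1 to 4 libraries, one gene per row and one library per column, knock-out columns in red and wild-type columns in blue. Dot area is proportional to the reads, printed beside each dot, and a cross marks a value of 0. The reads within a row are close to each other wherever they are not 0, and crosses stand in columns of both genotypes.

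The paralogs divided into genes that were read and genes that were not. Rpl3l, which in mice replaces Rpl3 in heart and skeletal muscle, and Rpl10l and Rpl39l, which are testis forms of Rpl10 and Rpl39, were listed at 0 in all 6 libraries. Rps27l had 753.02, 669.8 and 737.9 RPKM in knock-out libraries and 688.3, 628.3 and 725.2 RPKM in wild-type, a difference of 0.08 (SE 0.13) in log2(RPKM + 1) with overlapping groups. Rpl7l1 was far lower, at 40.6, 36.9 and 42.5 RPKM in knock-out libraries and 43.9, 39.5 and 42.5 RPKM in wild-type, with a difference of -0.07 (SE 0.11). Rpl36al had 4490, 0 and 4447 reads in knock-out libraries and 5137, 4846 and 4853 in wild-type. Rpl22l1, a paralog of the RNA-binding protein Rpl22, had 0 reads in each knock-out library and 2941, 0 and 2820 in wild-type. All reads of Rpl22l1 were assigned to a transcript annotated for nonsense-mediated decay, and with a 0 in wild-type replicate 2 as well its groups overlap. Rps19bp1 stood at 23.4 ± 1.91 RPKM in knock-out libraries and 24.2 ± 2.02 RPKM in wild-type (SD, n = 3 each), at the low end of the list.

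Copies of a ribosomal protein gene can share reads, so the first 60 coding bases of the closest members were set side by side. The sequences are those of the GENCODE M21 transcripts (GRCm38), 5′ to 3′ from the start codon, with capitals at bases that differ from Rps27 for the first 3 and from Rpl36a for the last 2. Rps27 (chr3:90212522-90213651, minus strand) and the intronless copy Rps27rt (chr9:114982371-114982740, minus strand) had the same 252 coding bases (100% identity). Rps27l (chr9:66946086-66949516, plus strand) differed from Rps27 at 18 of the 60 bases shown and was 76.2% identical over the coding sequence. Rpl36al (chr12:69182731-69184083, minus strand) differed from Rpl36a (chrX:134585654-134588062, plus strand) at 11 of the 60 and was 87.7% identical.
Rps27: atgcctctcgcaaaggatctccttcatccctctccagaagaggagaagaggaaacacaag
Rps27rt: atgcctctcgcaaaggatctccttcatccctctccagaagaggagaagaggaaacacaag
Rps27l: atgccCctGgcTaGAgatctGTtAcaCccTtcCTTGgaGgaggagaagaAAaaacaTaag
Rpl36a: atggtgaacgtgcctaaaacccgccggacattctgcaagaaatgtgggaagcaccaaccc
Rpl36al: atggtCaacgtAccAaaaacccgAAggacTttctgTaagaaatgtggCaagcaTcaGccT

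Reads from the coding sequence of Rps27 or Rps27rt can stand under either name, and how they were divided was not tested. Rps27rt had 154, 178 and 170 reads in knock-out libraries and 178, 158 and 174 in wild-type, among the lowest of the list, while Rps27, chosen after its values were seen, had 0, 0 and 5884 reads in knock-out libraries and 6786, 0 and 6489 in wild-type. The reads of Rps27rt were alike whether Rps27 was at 0 or not. The coding identity was 84.7% for Rpl10 and Rpl10l, 85.0% for Rpl39 and Rpl39l, 73.2% for Rpl3 and Rpl3l, 68.2% for Rpl22 and Rpl22l1 and 54.0% for Rpl7 and Rpl7l1.

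Pseudogenes took a small part of the ribosomal protein reads. Of 265 annotated ribosomal protein pseudogenes, 90 were above 0 in all 6 libraries, and together they held 0.115%, 0.128% and 0.148% of the reads in knock-out libraries and 0.141%, 0.102% and 0.119% in wild-type. The 2 with the most reads, chosen after their values were seen, contain the whole coding sequence of their parent gene with no mismatch. Rps6-ps4 had 2510, 2896 and 2690 reads in knock-out libraries and 3044, 2668 and 3032 in wild-type. Rpl10a-ps1 had 1864, 1842 and 1976 reads in knock-out libraries and 1984, 1708 and 2044 in wild-type. Reads from the coding sequence of Rps6 and Rpl10a can thus stand under these names, and knock-out and wild-type values overlap in both pseudogenes.

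Rpl13 and Rpl24 stood apart from the block. Rpl13 (chr8:123102350-123105244, plus strand of GRCm38) had 763, 392 and 2090 reads in knock-out libraries and 842, 735 and 425 in wild-type, and was the lowest subunit gene. The locus of Rpl13 in the files spans 4435365 bases with 91 genes (39 of them protein-coding) and 278 transcripts, among which the reads were divided. Rpl24, part of a bridge between the subunits and chosen after its values were seen, had 602, 594 and 4821 reads in knock-out libraries and 4015, 1261 and 889 in wild-type. In Rpl24 all but 24 of the reads, in wild-type replicate 3, were assigned to transcripts annotated as non-coding. It shares its locus with Zbtb11, which had 11217, 12645 and 4042 reads in knock-out libraries and 9563, 10598 and 12060 in wild-type, and with Gm28037, which had 595, 0 and 3077 in knock-out libraries and 0, 646 and 644 in wild-type. The other 64 members above 0 in every library lay within 1.5-fold between their highest and lowest library in RPM.

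Genes next to the ribosomal proteins in the pathway were described from lists. Fau, whose product carries a small subunit protein, measured 533.5, 455.2 and 465.7 RPKM in knock-out libraries and 597.5, 484.1 and 510.6 RPKM in wild-type. Rack1, a signalling scaffold on the small subunit, had 35374, 36416 and 38116 reads in knock-out libraries and 41812, 38286 and 41750 in wild-type. In Fau the groups overlap in these values, while all 3 knock-out read numbers of Rack1, which are not scaled to library size, lie below those of wild-type. Both Fau and Rack1 had a limma adjusted p of 0.996. In RPKM the groups of Rack1 overlap, at 1619.99, 1207 and 1369 in knock-out libraries and 1379, 1153 and 2344 in wild-type.

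Beside the lists, 0.789% of all 11021 tested genes passed. Signs and medians are from the fit of the 5538 genes above 0 in every library. In that fit 0% of all genes passed and 2.35% had an unadjusted p below 0.05. Of 28 translation initiation factors tested 0 passed. The 21 above 0 in every library had a median difference of -0.06, with 9 positive and 12 negative. Of 15 elongation and termination factors and other TOP mRNAs 0 passed, with 8 positive, 7 negative and a median of 0.02. Of 38 ribosome biogenesis genes 0 passed, and the 22 above 0 had a median of -0.03, with 8 positive, 14 negative and 1 at an unadjusted p below 0.05. Of the 20 genes of mTOR signalling and TOP control 18 were tested and 0 passed, and the 7 above 0 had a median of -0.08, with 3 positive and 4 negative. Eef1a1, which brings aminoacyl-tRNA to the ribosome and is itself a TOP mRNA, had 223978, 231526 and 236790 reads in knock-out libraries and 247602, 234802 and 257458 in wild-type. These read numbers are not scaled to library size. In RPKM the groups of Eef1a1 overlap, at 6171, 13772.5 and 6858 in knock-out libraries and 6587.5, 5976 and 7253 in wild-type. The difference was 0.34 (SE 0.32) in log2(RPKM + 1), with knock-out replicate 2 as the high value and a limma adjusted p of 0.996. Eef2, the translocation factor, measured 1394 ± 150.9 RPKM in knock-out libraries and 1307 ± 49.4 RPKM in wild-type (SD, n = 3 each).

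Larp1, which binds TOP mRNAs, stood at 74.6 ± 4.7 RPKM in knock-out libraries and 83.5 ± 6.26 RPKM in wild-type, a difference of -0.16 (SE 0.12) in log2(RPKM + 1). Myc, a transcription factor that raises ribosome production, stood at 157.2 ± 26.1 RPKM in knock-out libraries and 144.7 ± 36.8 RPKM in wild-type (SD, n = 3 each), a difference of 0.14 (SE 0.23). Both Larp1 and Myc had a limma adjusted p of 0.996. Mtor had 0, 2198 and 0 reads in knock-out libraries and 0 in each wild-type library, so no level can be read from it.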

How the data were processed

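Per the labels, polyadenylated RNA was sequenced single-end. Per the submitters' processing notes, the authors aligned the reads to GRCm38 (mm10) with TopHat2 (version 2). How reads were then assigned to transcripts, and whether by strand, is not given in the sources used. The deposited files give estimated read counts and RPKM for 118492 transcripts. Both were summed per gene, and 47993 of 48353 genes had a symbol. Genes that averaged at least 1 RPKM were tested on log2(RPKM + 1) with limma 3.58.1 in R 4.3.3 (trended eBayes, two-sided, Benjamini-Hochberg, adjusted p below 0.05), which understates changes of low genes. A second fit held those of them above 0 in all 6 libraries, because zeros at loci with several transcripts may be failed estimates. Such genes are given per library. Members, gene lists and tests were chosen with earlier results of these data known. The rule for naming took Bcl2l11, the stalk genes, Rpsa, Rps6, paralogs, Rps19bp1, the 8 highest and 4 lowest levels, the 8 smallest p, the 6 most read genes with a zero and 8 genes of the lists. Some genes under this rule are not reported here. Samples of the same number did not deviate together (correlations -0.16, -0.05 and -0.01), so the fit has no block. Promoter windows came from RefSeq and coding sequences from GENCODE. Tables and figures used Python 3.11.15.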

Additional observations from a re-analysis of the deposited data

How the results depend on the processing

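Over genes above 0 in every library, 0 ribosomal protein genes were called under all alternatives run, with the pseudocount at 0.1, no filter or a mean of at least 5 RPKM, rescaling, quantile normalization, other variance models, voom, the leading transcript alone and an adjusted p below 0.1. In these fits 0 genes of any kind were called, except 9 of 5526 with the leading transcript alone. Of all tested genes, 80 (leading transcript alone) to 99 (no filter) were called at an adjusted p below 0.05 under these alternatives. The count of ribosomal protein genes among them was 0 as well. It was 0 to 1 when single libraries were left out. The 1 was Rps28 without Bim knock-out replicate 1 (1.73% of all genes called) and Rpl22l1 without wild-type replicate 2 (1.77%), both genes with zeros. With the replicate block 0 genes were called in all, against 87 without it. Leaving out libraries moved the median difference of the 66 members between -0.11 (without wild-type replicate 2) and 0.05 (without wild-type replicate 3), and the log2 ratio of the sums between -0.11 and 0.03. The sign turned for 4 members with a small p, and the cause was not tested. The leading transcript is here the one with the highest mean RPKM over the 6 libraries. With it alone the difference was 0.50 for Rps27a, -3.004 for Rpl15 and 0.00332 for Rps20. It was also more negative for Rpl9 (-7.07) and Rps6 (-3.81). That transcript of Rpl9, of 456 bases, had 0, 0 and 4087 reads in knock-out libraries and 12442, 6682 and 12135 in wild-type. The transcripts of Rpl15 likewise had 0 reads in some libraries. Differences that include such zeros are no measure of the level of the gene. For Rps6 the difference was 0.00947 in RPM and 0.00915 with voom. The voom fits took the estimated reads divided by 2. Restricting to loci with 1 transcript, chosen after seeing the data, left 11 of the members and a median of -0.01. The 95% intervals rest on the spread between libraries, and the part of depth in their width was not tested.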
